A study of Homo sapiens with 4 samples.

Results

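The chains described here build laminins and the type I and type IV collagens: LAMA5, LAMB1, LAMB3, LAMC1, COL1A1, COL1A2, COL4A1 and COL4A2. They are 8 of the 19775 genes named on the arrays. They were followed through the probe sets whose only annotated symbol is one of these chains, and 18 of the 54675 probe sets met this rule, 6 for laminin and 12 for collagen chains. LAMA3 also belongs to the group, but no probe set used here is named for it, so it was not analysed here. A probe set listed for LAMA5 together with an antisense transcript was left out. In spheroids, LAMB1, LAMB3, LAMC1 and LAMA5 rose to different degrees with the arrays scaled as deposited. Of these, only LAMB1 stayed at an adjusted p under 0.05 in limma under every scaling tried. COL1A1 rose on 3 of its 5 probe sets, while its partner COL1A2 lay too low to be tested. COL4A1 and COL4A2 also lay at or below the lowest signals that were tested, whereas the relatives COL4A3 to COL4A6 rose.

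Laminins are cross-shaped trimers of an alpha, a beta and a gamma chain, and they form the sheet of the basement membrane on which epithelial cells rest. Type IV collagen forms a separate network in the same membrane, and type I collagen is the main fibre of connective tissue, made mostly by fibroblasts. A collagen molecule is a triple helix. It is usually built in type I from COL1A1 chains with COL1A2 and in type IV from COL4A1 chains with COL4A2. In the colon, epithelial cells secrete laminin chains, and fibroblasts supply most of the collagen.

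All samples came from HCT116, an established human colon carcinoma line, as the sublines wt and wt/GFP. Both sublines were cultured as spheroids, which are rounded multicellular aggregates, and as a monolayer on a flat surface. Each combination had 1 Affymetrix array, so spheroids and monolayer had 2 arrays each, 1 from each line. The labels do not say whether an array held RNA of 1 culture or of several, how the GFP line was made or whether it is 1 clone, and they give no time in culture. With so few arrays the precision is limited, and p-values reflect only spread between these arrays, which may be partly technical. For each probe set that spread was estimated mainly from other probe sets of like brightness.

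The epithelial markers EPCAM, KRT18 and KRT19 had signals between 19611 and 32967 on the 4 arrays, whereas CDX1 and GPA33, markers of colon epithelium, were at most 27.9. Of the 10 epithelial markers tested, 7 were called higher in spheroids and 0 lower by limma (0 lower also at an unadjusted p under 0.05). Among all 14337 genes on their brightest probe sets, 29.7% were called higher and 17.7% lower. VIL1, counted as higher, passed the level filter through its spheroid signals alone. The epithelial list was not tested under other scalings of the arrays. The largest rises were those of KRT20 by 2.51 ± 0.21, CDH1, which encodes E-cadherin, by 2.36 ± 0.13 and CLDN4 by 2.26 ± 0.13. KRT18 (0.14), KRT8 (-0.14) and CDX2 (-0.39) were not called, and the median change of the list was 0.42. Array medians were 67.3 and 68.4 for wt and wt/GFP spheroids, against 48.0 and 48.8 for the corresponding monolayers. The ratio of the 3' to the 5' probe sets of beta-actin, a sign of how complete the RNA is, was 1.76 and 1.73 on the spheroid arrays of wt and wt/GFP, against 1.32 and 1.30 on their monolayer arrays. The same ratio for GAPDH was 0.87 and 0.95 on the spheroid arrays of wt and wt/GFP, against 0.90 and 0.88 on their monolayer arrays. The hybridisation controls, foreign transcripts added in known amounts, were brighter in spheroids, with medians of the log2 differences of 0.39 (wt) and 0.78 (wt/GFP). Apart from the GAPDH ratio, these measures moved with the culture condition, and their part in the changes below was not tested. In bulk RNA, fewer cells that express a gene and less RNA per cell cannot be told apart.

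Changes are given as spheroids minus monolayer in log2(signal + 14), averaged over the 2 lines, with the moderated standard error (SE) of limma and a Benjamini-Hochberg adjusted p over 32746 tested probe sets. A probe set was tested if its mean level over the 4 arrays exceeded a signal of about 30.6, and called at an adjusted p under 0.05. Of the 18 probe sets, 12 were tested, and 9 of these were called, all of them higher in spheroids, against 40.1% called in either direction and 25.5% called higher among all tested probe sets. None was called lower by limma, against 14.6% of all tested probe sets, and 0 were lower at an unadjusted p under 0.05 either. The 3 tested probe sets that were not called belong to COL1A1 and COL4A1. The median log2 change was 1.02 over the 12 tested probe sets and 0.23 over all tested probe sets. On 10 of the 12 the spheroid signals did not overlap the monolayer signals, among them COL1A1 probe set 217430_x_at, which was not called. The share without overlap among all tested probe sets was not counted, so this number is not read as a result about the chains. COL1A1 probe set 202311_s_at passed the level filter through its spheroid signals alone, so counts over the tested probe sets do not describe all 18.

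**Figure D1:**
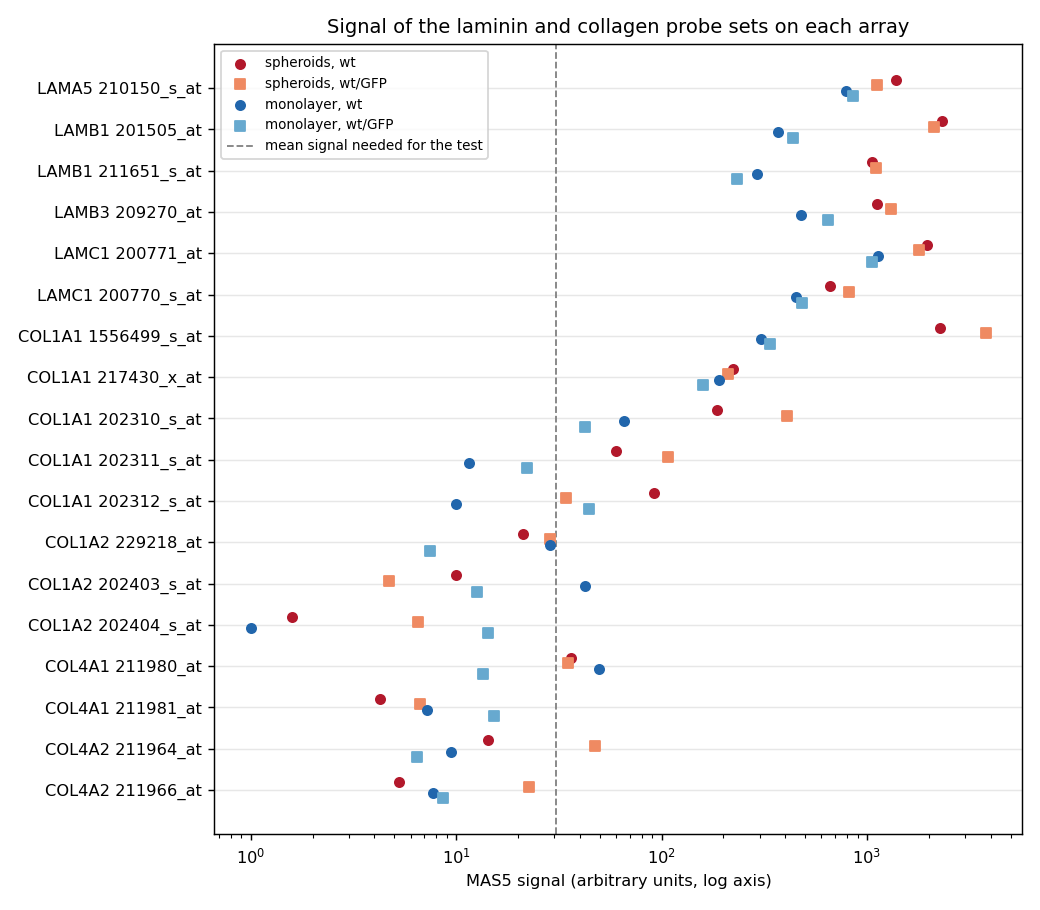
MAS5 signal (horizontal log axis) of each of the 18 probe sets on the 4 arrays, with spheroids in red and orange and monolayer in blue. The dashed line marks the signal of 30.6 that a probe set's mean level had to exceed. All laminin probe sets and the brightest COL1A1 probe set lay to its right on all 4 arrays, whereas the COL1A2, COL4A1 and COL4A2 probe sets lay around or to the left of it.

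LAMB1, a beta chain found in laminins of most basement membranes, had the largest change of the laminin chains. Its probe set 201505_at had signals of 2323 and 2116 in wt and wt/GFP spheroids, against 367 and 434 in wt and wt/GFP monolayers. Both spheroid arrays were thus far above both monolayer arrays. LAMB1 rose by 2.43 ± 0.15 log2 units, or 5.40-fold (adjusted p = 1.24e-12 in limma). Its other probe set, 211651_s_at, had signals of 1056 and 1107 in wt and wt/GFP spheroids, against 291 and 234 in wt and wt/GFP monolayers. The second probe set rose by 1.99 ± 0.17, or 3.99-fold (adjusted p = 7.47e-10 in limma), so the 2 probe sets gave the same direction.

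LAMB3, a beta chain of epithelial laminin that helps to anchor cells through hemidesmosomes, had signals of 1120 and 1311 in wt and wt/GFP spheroids, against 478 and 644 in wt and wt/GFP monolayers. It rose by 1.11 ± 0.15, or 2.15-fold (adjusted p = 1.30e-06 in limma), and the groups did not overlap. Its call depended on how the hybridisation controls were used to scale the arrays. Scaling by the median deviation of single controls gave 0.52 (adjusted p = 0.258 in limma), and centring on the controls' median level gave 0.62 (adjusted p = 0.0236 in limma).

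LAMC1, the gamma chain shared by most laminins, changed less. Its probe set 200771_at had signals of 1949 and 1781 in wt and wt/GFP spheroids, against 1133 and 1059 in wt and wt/GFP monolayers. It rose by 0.76 ± 0.13, or 1.69-fold (adjusted p = 4.67e-05 in limma). The other probe set, 200770_s_at, had signals of 657 and 817 in wt and wt/GFP spheroids, against 449 and 481 in wt and wt/GFP monolayers, and rose by 0.64 ± 0.17 (adjusted p = 0.00294 in limma). Both probe sets of LAMC1 were without overlap and nearly equal in the size of their change.

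LAMA5, the main alpha chain of laminins in adult epithelia, had signals of 1381 and 1113 in wt and wt/GFP spheroids, against 786 and 857 in wt and wt/GFP monolayers. It rose by 0.59 ± 0.15, or 1.5-fold (adjusted p = 0.00240 in limma). The rise of LAMA5 depended on how the arrays were scaled, since its change was 0.20 with median centring (adjusted p = 0.333 in limma). Scaled by the deviations of the hybridisation controls it was -0.0047 (adjusted p = 0.994 in limma), and centred on their median level 0.10 (adjusted p = 0.770 in limma), so even its sign depended on that choice. Without the wt monolayer array its change was 0.53, with adjusted p = 0.0890 in limma.

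LAMA5, LAMB1 and LAMC1 can join in 1 laminin trimer. The change of LAMB1 exceeded that of LAMC1 by 1.84 log2 units in wt and by 1.51 in wt/GFP, with a mean of 1.67 ± 0.24 (SD, n = 2 lines), which is a 3.19-fold difference in fold change. LAMA5 and LAMC1 differed by 0.027 in wt and -0.37 in wt/GFP, taken as LAMA5 minus LAMC1, with a mean of -0.17 ± 0.28 (SD, n = 2 lines). That mean was smaller than the spread between the lines, and with 2 lines it does not show that the chains changed alike. Between the beta chains, LAMB3 minus LAMB1 was -1.41 in wt and -1.24 in wt/GFP, with a mean of -1.33 ± 0.12 (SD, n = 2 lines). With 2 lines an exact two-sided sign-flip test cannot give a p below 0.5, which is the value it gave for LAMB1 against LAMC1 and for LAMB3 against LAMB1. For LAMA5 against LAMC1 it gave an exact p of 1. These differences within an array depend little on its scaling factor. Those between LAMB1 and the other 2 chains, LAMC1 and LAMB3, describe unequal change without showing that any chain stayed constant.

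The stretches before the transcription starts of LAMB1 and LAMC1 are shown because the chains share a trimer and changed unequally. They are the 250 bases upstream of the RefSeq start in GRCh38.p14, for LAMB1 at chr7:108003162-108003411 on the minus strand and for LAMC1 at chr1:183023170-183023419 on the plus strand. Capitals mark GC boxes, the letters GGGCGG on either strand.
LAMB1: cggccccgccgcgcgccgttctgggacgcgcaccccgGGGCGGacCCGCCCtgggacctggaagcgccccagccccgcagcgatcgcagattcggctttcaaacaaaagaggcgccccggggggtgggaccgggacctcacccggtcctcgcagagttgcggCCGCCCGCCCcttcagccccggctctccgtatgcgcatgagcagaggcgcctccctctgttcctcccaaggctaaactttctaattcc
LAMC1: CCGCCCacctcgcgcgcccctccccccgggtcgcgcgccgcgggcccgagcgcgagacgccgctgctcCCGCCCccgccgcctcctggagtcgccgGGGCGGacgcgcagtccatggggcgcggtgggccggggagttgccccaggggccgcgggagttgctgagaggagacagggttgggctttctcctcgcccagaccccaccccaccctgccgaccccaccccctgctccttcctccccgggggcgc
LAMB1 held 4 GC boxes, of which 2 overlapped by sharing letters, and LAMC1 held 3. A GC box occurred in 42.3% of 27305 promoter stretches of the same length, which makes its presence common. Neither stretch held the hypoxia response core ACGTG or GCGTG on either strand, which occurred in 43.1% of all stretches, nor the letters CCAAT (33.0%), TATAAA (11.1%) or TGANTCA (6.60%). Of the 8 genes, 6 had a sequence in the RefSeq promoter table, and COL1A1 and COL1A2 were not among them.

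COL1A1, which encodes the main chain of type I collagen, had 5 probe sets, all tested. Probe set 1556499_s_at had signals of 2275 and 3780 in wt and wt/GFP spheroids, against 303 and 338 in wt and wt/GFP monolayers. It rose by 3.14 ± 0.16, or 8.82-fold (adjusted p = 1.62e-14 in limma), the largest change of the 12 tested probe sets. Probe set 202310_s_at had signals of 187 and 406 in wt and wt/GFP spheroids, against 65.3 and 42.4 in wt and wt/GFP monolayers, and rose by 2.12 ± 0.35 (adjusted p = 2.08e-05 in limma). On both of these the lowest spheroid signal was well above the highest monolayer signal.

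The other 3 COL1A1 probe sets changed less. Probe set 202311_s_at had signals of 59.9 and 108 in wt and wt/GFP spheroids, against 11.5 and 22.2 in wt and wt/GFP monolayers, and rose by 1.64 ± 0.55 (adjusted p = 0.0175 in limma). Both of its monolayer signals lay below the filter, so the size of its change depends on the pseudocount, and its call was lost without the wt/GFP spheroid array (adjusted p = 0.159 in limma), without the wt monolayer array (adjusted p = 0.0905 in limma), with all probe sets tested regardless of level (adjusted p = 0.0604 in limma) and under each other scaling tried. Probe set 217430_x_at, whose name marks it as one that can bind other transcripts, had signals of 223 and 210 in wt and wt/GFP spheroids, against 190 and 158 in wt and wt/GFP monolayers. Its change was 0.30 ± 0.26 and was not called (adjusted p = 0.392 in limma), and its sign turned under each other scaling tried. Probe set 202312_s_at had signals of 91.5 and 34.3 in wt and wt/GFP spheroids, against 9.94 and 44.4 in wt and wt/GFP monolayers, so its groups overlapped. Its change was 0.93 ± 0.61 (adjusted p = 0.235 in limma), with 2.14 in wt and -0.28 in wt/GFP. Thus 3 of 5 COL1A1 probe sets were called higher, and none lower. All 3 carry _s_ in their names, a mark of probe sets shared between transcripts. Signals of 1556499_s_at in spheroids lay far above those of every other COL1A1 probe set.

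COL1A2, the partner chain in type I collagen, had 3 probe sets, and none passed the filter. Probe set 229218_at had signals of 21.2 and 28.6 in wt and wt/GFP spheroids, against 28.6 and 7.47 in wt and wt/GFP monolayers. Probe set 202403_s_at had signals of 10.0 and 4.69 in wt and wt/GFP spheroids, against 42.5 and 12.7 in wt and wt/GFP monolayers. Probe set 202404_s_at had signals between 1.01 and 14.3 on the 4 arrays. Only 1 of these 12 signals, in the wt monolayer, exceeded 30.6, and with all probe sets tested regardless of level no COL1A2 probe set was called (adjusted p between 0.247 and 0.739 in limma). The change of the brightest COL1A2 probe set minus that of the brightest COL1A1 probe set was -3.12 in wt and -2.44 in wt/GFP, with a mean of -2.78 ± 0.48 (SD, n = 2 lines, exact two-sided sign-flip p = 0.5, the smallest possible). At these signals a change of COL1A2 was not measurable, so the difference describes a rise of COL1A1 beside a partner that was not detectable above the filter.

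Markers of fibroblasts, the usual source of type I collagen, were at low signals in all cultures. Of 12 markers on the array 5 passed the filter, and 0 were called in either direction by limma, although 2 were higher at an unadjusted p under 0.05. Their summed signal was 466 and 571 in wt and wt/GFP spheroids, against 350 and 324 in wt and wt/GFP monolayers. Lumican (LUM) was between 5.62 and 22.8 on the 4 arrays, PDGFRA between 6.30 and 16.1, and POSTN, which encodes periostin, between 4.54 and 35.0. COL3A1, the fibrillar collagen that usually accompanies type I, had signals of 57.4 and 79.8 in wt and wt/GFP spheroids, against 29.5 and 6.56 in wt and wt/GFP monolayers, and was not called (adjusted p = 0.0517 in limma). FAP had signals of 77.6 and 77.8 in wt and wt/GFP spheroids, against 7.25 and 48.3 in wt and wt/GFP monolayers. FAP was not called either (adjusted p = 0.0528 in limma). MMP2 was between 56.1 and 131 on the 4 arrays, DCN between 47.9 and 79.1, THY1 between 24.3 and 59.5, and the untested PDGFRB between 6.41 and 76.3. The endothelial and pericyte list summed to 1659 and 1846 in wt and wt/GFP spheroids, against 908 and 905 in wt and wt/GFP monolayers, and 2 of its 5 tested markers were called higher. These were NOTCH3, which rose by 2.22 ± 0.27 (adjusted p = 2.20e-07 in limma), and MCAM, which rose by 0.67 ± 0.17 (adjusted p = 0.00283 in limma). PECAM1 passed the filter with signals of 189 and 162 in wt and wt/GFP spheroids, against 126 and 103 in wt and wt/GFP monolayers. PECAM1 was not called (adjusted p = 0.142 in limma), nor were RGS5 (0.0891) and CSPG4 (0.107), though all were higher in spheroids in both lines. The untested CDH5 and VWF were at most 57.1 and 50.4 on any array. The immune list summed to 702 and 682 in wt and wt/GFP spheroids, against 399 and 325 in wt and wt/GFP monolayers, and 1 of its 5 tested markers was called higher. That marker was LYZ, which encodes lysozyme, with signals of 290 and 328 in wt and wt/GFP spheroids, against 32.0 and 9.61 in wt and wt/GFP monolayers, and a rise of 3.29 ± 0.39 (adjusted p = 1.33e-07 in limma). PTPRC, the general leukocyte marker, was untested and between 6.19 and 42.2. Among all 14337 genes on their brightest probe sets 29.7% were called higher. The counts of 2 of 5 and 1 of 5 are therefore not read as results about cell types. The endothelial and immune lists were not tested under other scalings of the arrays. The part of these marker changes in the member results was not tested.

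**Figure D2:**
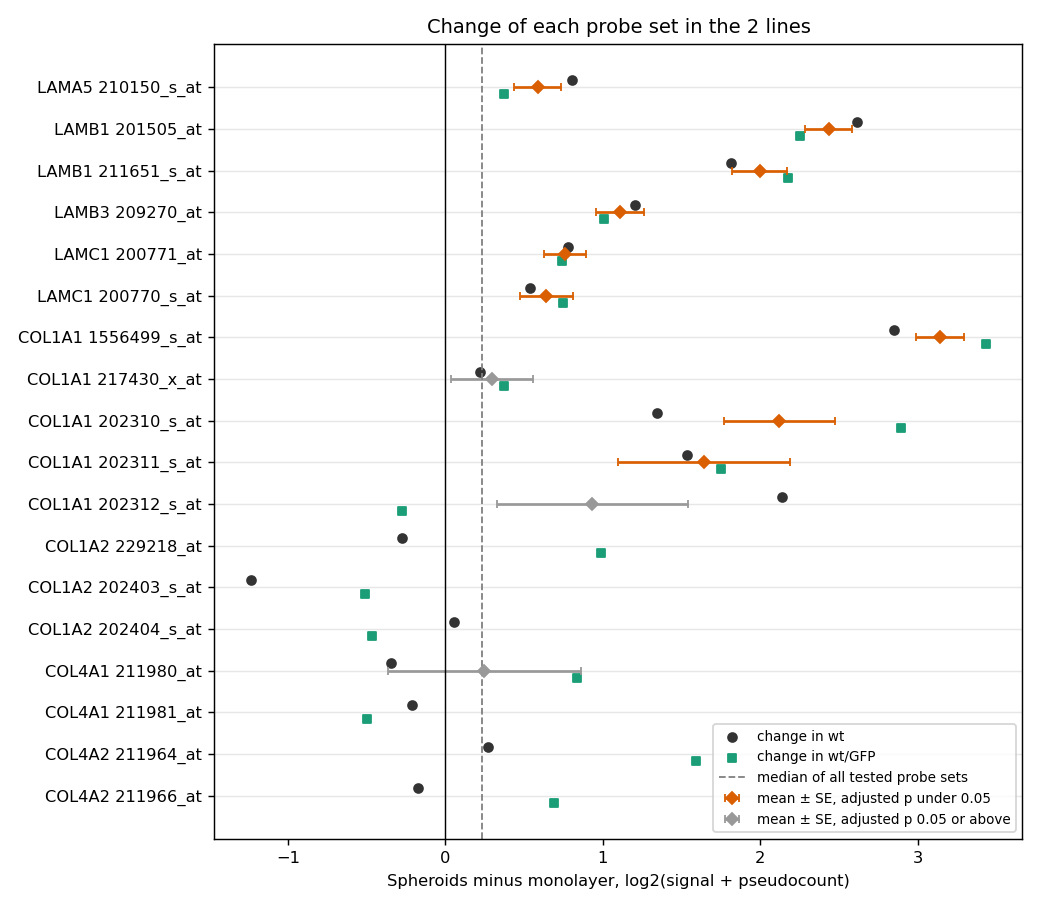
Change of each of the 18 probe sets (horizontal axis, spheroids minus monolayer in log2(signal + pseudocount)), as black circles for wt and green squares for wt/GFP. Diamonds with bars give the mean and moderated SE of the 12 tested probe sets, orange where called and grey where not, and the dashed line is the median of all tested probe sets, 0.23. The gap between the lines was at most 0.43 in size for the laminin probe sets, and it was widest for COL1A1 on 202312_s_at (-2.42, wt/GFP minus wt) and 202310_s_at (1.55).

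COL4A1 and COL4A2 encode the chains of the most widespread type IV collagen. COL4A1 probe set 211980_at, the only 1 of their 4 probe sets that passed the filter, had signals of 36.2 and 35.1 in wt and wt/GFP spheroids, against 49.7 and 13.5 in wt and wt/GFP monolayers. The groups overlapped, and its change of 0.25 ± 0.61 was not called (adjusted p = 0.784 in limma). The other COL4A1 probe set, 211981_at, was between 4.25 and 15.2 on the 4 arrays. COL4A2 probe set 211964_at had signals of 14.3 and 47.6 in wt and wt/GFP spheroids, against 9.46 and 6.46 in wt and wt/GFP monolayers. COL4A2 probe set 211966_at had signals of 5.27 and 22.5 in wt and wt/GFP spheroids, against 7.70 and 8.63 in wt and wt/GFP monolayers. On both COL4A2 probe sets the highest signal was that of the wt/GFP spheroid array, and neither was called when tested regardless of level (adjusted p of 0.256 and 0.750 in limma). The change of COL4A2 minus that of COL4A1 was 0.61 in wt and 0.75 in wt/GFP, but its mean of 0.68 was 0.31 with the median signal and 1.28 with nothing as pseudocount. At these signals a change of either chain was not measurable, so no difference between them is read from these values.

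The COL4A1 and COL4A2 genes lie head to head on chromosome 13, with RefSeq starts at 110307157 on the minus strand and 110307284 on the plus strand. The 126 bases between the starts, chr13:110307158-110307283 in GRCh38.p14, are shown because both partner genes are read outward from them. They are given on the plus strand, the direction of COL4A2, with capitals for a CCAAT box and a GC box.
COL4A1-COL4A2 interval: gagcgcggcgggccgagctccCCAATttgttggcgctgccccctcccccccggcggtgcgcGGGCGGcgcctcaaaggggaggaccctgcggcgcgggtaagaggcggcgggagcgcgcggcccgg
The stretch held 1 CCAAT and 1 GGGCGG, which occurred in 21.9% and 34.6% of 27305 promoter stretches of this length, counting both strands. It held no ACGTG or GCGTG (28.7% of stretches), no TATAAA (6.23%) and no TGANTCA (3.47%).

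The other type IV chains are likewise encoded by neighbouring pairs, COL4A3 with COL4A4 and COL4A5 with COL4A6, and they are known from specialised basement membranes such as that of the kidney glomerulus. COL4A3 had signals of 145 and 240 in wt and wt/GFP spheroids, against 27.5 and 14.8 in wt and wt/GFP monolayers, and rose by 2.54 ± 0.44 (adjusted p = 3.50e-05 in limma). Both of its monolayer signals lay below the filter, so it passed through its spheroid signals alone and the size of its change depends on the pseudocount. COL4A4 had signals of 401 and 586 in wt and wt/GFP spheroids, against 110 and 76.3 in wt and wt/GFP monolayers, and rose by 2.24 ± 0.26 (adjusted p = 1.20e-07 in limma), although its other tested probe set had a value of -0.059. COL4A5 had signals of 1222 and 1427 in wt and wt/GFP spheroids, against 314 and 310 in wt and wt/GFP monolayers. It rose by 2.03 ± 0.16 (adjusted p = 1.45e-10 in limma). COL4A6, named here after its values were seen, rose by 1.32 ± 0.33 (adjusted p = 0.00176 in limma) and had a change of 0.73 when scaled by the hybridisation controls' deviations (adjusted p = 0.116 in limma). All 4 were higher in spheroids in both lines. The difference between their changes and those of COL4A1 and COL4A2 was not tested.

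**Figure D3:**
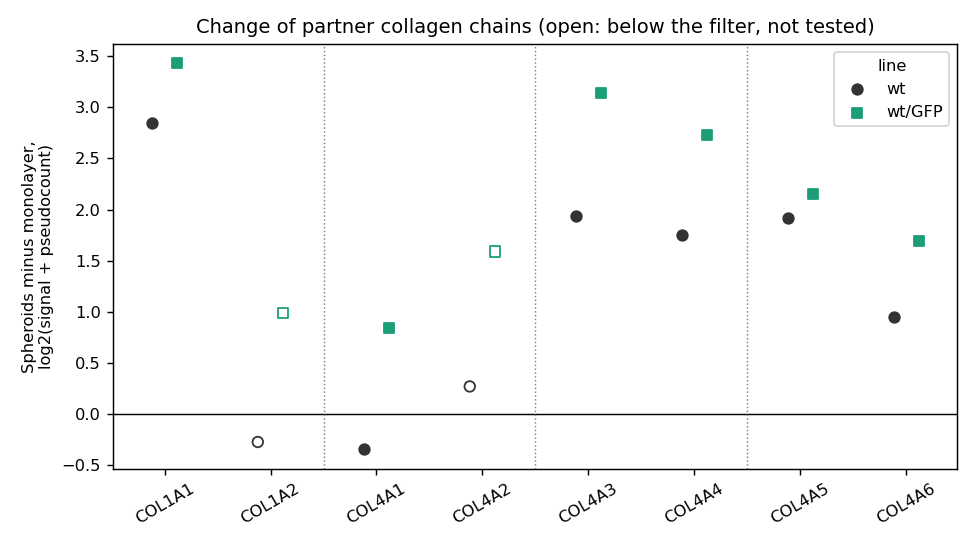
Change in wt (black circles) and wt/GFP (green squares) for the brightest probe set of COL1A1, COL1A2 and the 6 type IV chains (vertical axis, spheroids minus monolayer in log2(signal + pseudocount)), with dotted lines between partner pairs. Open symbols mark COL1A2 and COL4A2, which lay below the filter. COL1A1 and COL4A3 to COL4A6 lay above 0 in both lines, whereas COL1A2 and COL4A1 had opposite signs in the lines.

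The lines did not differ detectably in these chains. No member probe set was called between wt/GFP and wt by limma (smallest adjusted p = 0.712), against 0.0183% of all tested probe sets, and 2 of the 12 had an unadjusted p under 0.05, as did 1879 of all 32746. The brightest COL1A1 probe set was higher in wt/GFP than in wt by 0.44 ± 0.16 log2 units on average, and LAMB3 by 0.32 ± 0.15. The change of COL1A1 in spheroids was 3.43 in wt/GFP and 2.85 in wt on this probe set, and 2.90 in wt/GFP and 1.34 in wt on 202310_s_at. Whether such changes differ between the lines could not be tested, because each line had 1 array per culture.

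The size of every change depended on the scaling of the arrays. The median log2 change of all tested probe sets was 0.23 as deposited, -0.03 with quantile normalization and -0.16 with median centring. It was -0.36 when arrays were scaled by the median deviation of the hybridisation controls, and -0.25 when they were centred on the controls' median level. Higher probe sets made up 63.5%, 48.6%, 32.7%, 19.5% and 26.5% of all calls under these 5 scalings in the order given. Of the member probe sets, 9, 7, 6, 4 and 5 were called higher in the same order, and 0 lower. Both LAMB1 probe sets and COL1A1 on 1556499_s_at and 202310_s_at were called under all 5, and LAMB3 under all but the deviation scaling. The lowest change over these scalings was 1.84 for LAMB1 on 201505_at and 2.55 for COL1A1 on 1556499_s_at. LAMC1 on 200771_at lost its call under both uses of the hybridisation controls, with changes of 0.17 (adjusted p = 0.755 in limma) and 0.28 (adjusted p = 0.339 in limma), and 200770_s_at lost its call already with quantile normalization (adjusted p = 0.0751 in limma) and without the wt monolayer array (adjusted p = 0.0813 in limma). When limma's moderation ignored signal level, the calls of LAMA5 (adjusted p = 0.140), LAMB3 (0.0527), LAMC1 (0.0739 and 0.1001) and COL1A1 on 202310_s_at (0.0683) were lost, with the changes themselves as before. Both LAMB1 probe sets and COL1A1 on 1556499_s_at and 202311_s_at then kept their calls only narrowly, each with adjusted p = 0.0477 in limma.

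**Figure D4:**
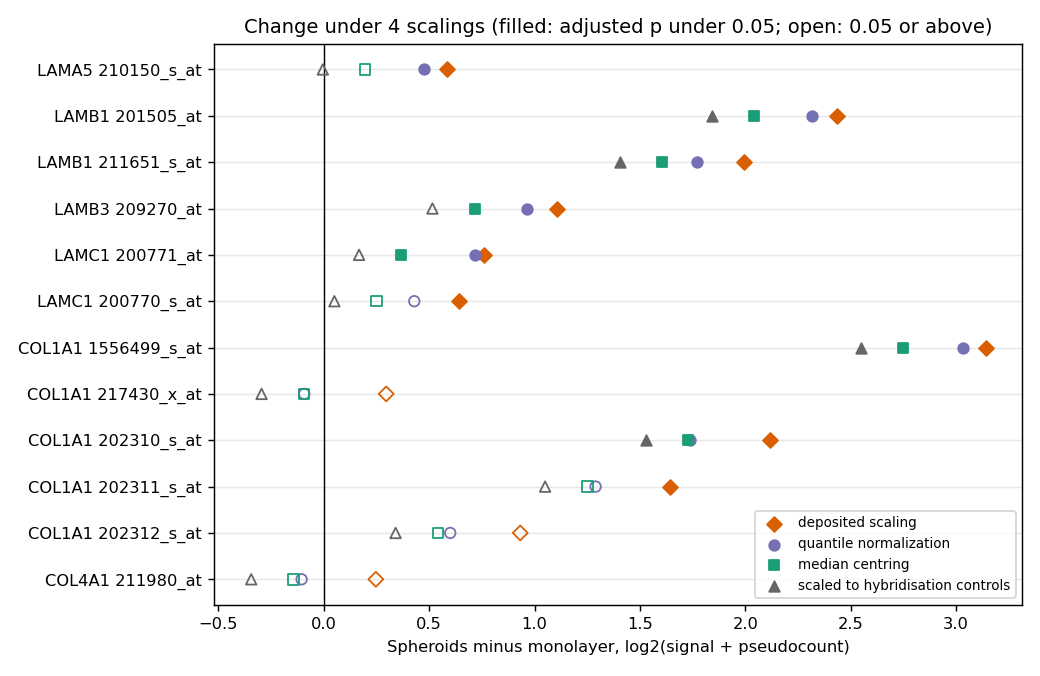
Change of the 12 tested probe sets (horizontal axis, spheroids minus monolayer in log2(signal + pseudocount)) under 4 scalings of the arrays, filled where the adjusted p was under 0.05 and open otherwise. LAMB1 and the probe sets 1556499_s_at and 202310_s_at of COL1A1 stay filled under all 4, and LAMA5 reaches 0 in the scaling by the deviations of the hybridisation controls.

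The other laminin and collagen genes were counted on the brightest probe set of each, against 29.7% higher and 17.7% lower among all 14337 genes treated alike, with a median change of 0.23. Of 4 other laminin chains tested, 2 rose and 1 fell. LAMB2, a beta chain of mature basement membranes, rose by 1.83 ± 0.20, with signals of 632 and 821 in wt and wt/GFP spheroids against 204 and 180 in wt and wt/GFP monolayers. LAMC3 rose by 1.94 ± 0.41, but its wt monolayer signal of 15.5 stood far below the 132 of the wt/GFP monolayer, and its other probe set had a value of 0.05. LAMA2, an alpha chain best known from muscle, fell by 0.67 ± 0.21. Of 24 other collagen chains tested, 12 rose and 1 fell, with a median change of 0.83. Scaled by the controls' deviations the median was 0.24 (6 higher, 2 lower), and centred on the controls' median level it was 0.35 (8 higher, 2 lower). COL12A1, a chain that binds to collagen fibres, fell by 0.95 ± 0.20, with changes of -1.56 in wt and -0.34 in wt/GFP. Its 3 other tested probe sets had changes between -0.997 and -0.253 and were not called.

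Among 10 tested basement membrane partners 5 rose and 0 fell in limma. Under each other scaling tried 1 was called lower, namely TINAGL1, named after its values were seen, with -0.36 as deposited (adjusted p = 0.129 in limma) and -0.61 after quantile normalization (adjusted p = 0.0215 in limma). HSPG2, which encodes perlecan, a proteoglycan that links laminin and collagen networks, rose by 2.95 ± 0.29. NTN4, a netrin that binds laminin, rose by 2.71 ± 0.31, and SPARC, a collagen-binding glycoprotein, by 2.26 ± 0.34. Of 10 tested receptors 7 rose and 0 fell, with 1 called lower under median centring and both uses of the hybridisation controls. That 1 was ITGA6, a laminin receptor named after its values were seen, with -0.31 as deposited (adjusted p = 0.0605 in limma) and -0.70 after median centring (adjusted p = 9.77e-05 in limma). The receptors called higher then numbered 5 or 6. The largest rises were those of the integrin chains ITGA2, which binds collagen, with a rise of 2.68 ± 0.13, ITGA7, which binds laminin, with 2.18 ± 0.27, and ITGA3, also a laminin receptor, with 1.79 ± 0.16. Of 23 tested genes of collagen folding and assembly 9 rose and 3 fell. The lysyl oxidase LOXL2 rose by 3.41 ± 0.17, and the collagen hydroxylases P4HA1 and PLOD2 rose by 2.82 ± 0.12 and 2.81 ± 0.13. SERPINH1, the collagen chaperone of the endoplasmic reticulum, fell by 1.26 ± 0.14, LOXL3 fell by 1.30 ± 0.34 and COLGALT1, which adds galactose to collagen, fell by 0.63 ± 0.14. Scaled by the controls' deviations that list had 3 higher and 5 lower genes, and centred on their median level 4 higher and 5 lower. Of 13 tested matrix proteases and inhibitors 8 rose and 0 fell, with 2 higher and 0 lower when scaled by the controls' deviations and 3 higher and 1 lower when centred on their median level or after median centring. Cathepsin B (CTSB) rose by 1.31 ± 0.12, the inhibitor TIMP2 by 1.30 ± 0.13, and cathepsin K (CTSK), a collagen-degrading protease, by 1.19 ± 0.35, a call that was lost under each other scaling tried. Each gene said to have risen or fallen among these lists had an adjusted p under 0.05 in limma. At an unadjusted p under 0.05, 0 genes were lower among the basement membrane partners and the proteases and inhibitors, and 1 among the receptors.

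LAMC1 was not among the genes nearest to LAMB1 in profile. With levels centred on each gene's mean over the 4 arrays, the genes closest to LAMB1 were ST6GALNAC2, a sialyltransferase, with a Euclidean distance of 0.044, AHNAK2 with 0.046 and SERPINB1, a protease inhibitor, with 0.058. These 3 rose by 2.40, 2.43 and 2.38. LAMC1 ranked 4093 of 14336 genes in that order, at a distance of 1.69. The levels were not scaled, so this distance mainly reflects the size of the change and repeats the unequal change of LAMB1 and LAMC1 given above. Both chains were higher in spheroids in both lines. The genes closest to COL4A1 were EGFR, PCSK5 and MORF4L2-AS1, at distances between 0.10 and 0.13, and COL4A2 had no tested probe set to rank. Those closest to COL1A2 were L3MBTL1, TMEM242 and AFM. Because the COL1A2 signals lay below the filter and those of COL4A1 around it, these orders are not interpretable as profiles of the chains. With 4 arrays such likeness is a description of these profiles only.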

How the data were processed

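Total RNA was labelled with biotin and hybridised to Affymetrix arrays, per the labels' protocols. Deposited values are MAS5 signals, that is intensities on a linear scale; the tool is named in the submitters' processing notes, without version or settings. The mean after trimming 2% at each end was 500.1 on each array, so a broad change in RNA content would not be visible. Detection calls were not used here. Of the 54675 probe sets, 41091 had 1 symbol in the platform annotation, which can be old, 1801 had several, 11721 had none and 62 were controls. The symbols of 41037 were updated through a RefSeq gene table.

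Signals were taken as log2(signal + 14), the 25th percentile of all values as pseudocount, which understates changes of dim genes. Probe sets with a mean above the 40th percentile (log2 5.48) were fitted with limma 3.58.1 in R 4.3.3, with culture and cell line as terms, trended moderation, and 1 residual and 24.8 prior degrees of freedom. Errors thus rest mainly on other probe sets of like brightness. The pairing comes from the line that the labels name, and the line difference in spheroids had a correlation of -0.0036 across probe sets with that in monolayers. The procedure was tested on simulated data. Partner chains were compared on the brightest probe set of each chain with no filter, and nearest profiles were sought among tested probe sets from the brightest probe set of the chain, also with no filter on it; this was settled after a first run over filtered probe sets had given no value for COL1A2 and COL4A2. Named genes were the members, up to 3 called genes per direction with the largest change in each other list, and the 3 nearest profiles of COL1A2, LAMB1 and COL4A1. Members and lists were chosen with earlier results of these data known. Alternatives were other scalings, pseudocounts, filters, probe set choices, moderation, no line term, and leaving out each array, the last with no line term, since no residual degree of freedom would remain. The planned scaling to the hybridisation controls did not say how they were to be used. It was first run by centring each array on the controls' median level, and then, with those results seen, by the median deviation of each control from its own mean, to match the printed differences of the controls. Both are reported, and the first is counted as an alternative added after seeing the data. Comparisons with LAMA3 were not made.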

Additional observations from a re-analysis of the deposited data

Results flagged for a closer look

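In 5 of the 18 probe sets the 2 lines moved in opposite directions, each with 1 array per culture, so the difference between the lines was not tested. Values are the change in wt/GFP minus the change in wt, in log2 units. They were -2.42 for COL1A1 probe set 202312_s_at, 1.26 for COL1A2 probe set 229218_at and -0.52 for COL1A2 probe set 202404_s_at. They were 1.18 for COL4A1 probe set 211980_at and 0.86 for COL4A2 probe set 211966_at. On each of these 5 probe sets at least 1 array lay below the signal of 30.6 used as the filter. No other member probe set showed opposite directions.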

How the results depend on the processing

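No member probe set was called lower under any alternative run. The hybridisation controls were used in 2 ways, and the choice between them was made after both outcomes could be seen. Centring on their median level, run first and listed as added after seeing the data, gave 5 members called higher (9 as reported) and 3210 higher and 8889 lower probe sets in the whole table (8340 and 4794 as reported), with LAMB3 called and LAMA5 at 0.10. Scaling by the deviations of single controls, run second, gave 4 members, 1875 higher and 7738 lower, with LAMB3 not called and LAMA5 at -0.0047. Neither use can be preferred from these data. Median centring gave 4285 higher and 8823 lower. The brightest probe set of each gene gave 5 members of 6 tested, with 4396 higher and 2663 lower in all. Leaving out probe sets with _s_, _x_ or _a_ in their names, which can be shared between transcripts, gave 3 members of 4 tested, with 5241 higher and 2329 lower. That setting kept no probe set of COL1A1 or LAMA5, so their rises were not examined in it. Moderation with no trend gave 4 members, 2192 higher and 684 lower. Leaving out each array gave 6 to 9 members, 6139 to 7034 higher and 3299 to 4545 lower. In the fit with no replicate block, which ignores the pairing by line, 9 members were called, with 7701 higher and 4510 lower in all, and no member's call changed. COL1A1 217430_x_at, never called, was -0.093 with quantile normalization, -0.095 with median centring, -0.30 with the deviation scaling and -0.19 with centring on the controls. COL4A1 211980_at, never called, was -0.11, -0.14, -0.34 and -0.24 in the same order, and -0.36 to 0.85 when arrays were left out. COL4A2 minus COL4A1, 0.68 as reported, was 0.79 with quantile normalization, 1.28 with no pseudocount and 0.31 with the median signal as pseudocount. LAMB3 minus LAMB1 was -1.11 with the mean of tested probe sets, a setting that gave no value for COL1A2 and COL4A2, which had none. The cause of these shifts was not tested. Signals near the filter limit what can be seen of COL1A2, COL4A1 and COL4A2.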
